A study of Mus musculus with 63 samples.

Results

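The genes of interleukin 7 (IL-7) receptor signalling through JAK kinases and STAT5 were examined in single innate lymphoid progenitors of the mouse. They were 10 genes chosen by symbol: the receptor chains Il7r, Il2rg, Il2rb and Il2ra, the kinases Jak1 and Jak3, the transcription factors Stat5a and Stat5b, and the feedback inhibitors Socs1 and Cish. All 10 had a row among the 23420 of the deposited table, which gave TPM, an abundance per transcript length with the same sum in all libraries. The progenitors, CHILPs (common helper innate lymphoid progenitors), are the source of helper innate lymphoid cells. One group, WT, was 29 single wild-type CHILPs of C57BL/6 mice, sorted as CD45.2+ and lineage-negative cells with surface CD127, the protein of Il7r, and integrin α4β7, without CD135 or CD25, the protein of Il2ra, and with intermediate or no Sca1. The other, iR9, was 34 libraries of cells with the same surface phenotype that also carried GFP. Its strain label was again C57BL/6. The series title gives pluripotent stem cells as their source. They had been transplanted into Rag2-/-Il2rg-/- mice and were taken from the marrow of these recipients after 4 weeks. Such recipients lack their own T, B and natural killer cells. The labels name no transplantation or tissue for the WT cells. No animal or culture was named for either group, so each counted as 1 sample of many cells. All comparisons are therefore descriptions with the spread over cells, without a test.

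IL-7 binds a receptor made of the Il7r chain and the common gamma chain encoded by Il2rg. Jak1 sits on Il7r and Jak3 on the gamma chain, and together they phosphorylate STAT5, which enters the nucleus and switches on survival genes and its own inhibitors, Cish and Socs1 among them. Il2rb joins the gamma chain in the receptors for IL-2 and IL-15, and Il2ra adds high affinity for IL-2. In lymphoid progenitors this pathway supports survival and the development of innate lymphoid cells.

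STAT5 dimers bind the palindrome TTCNNNGAA, in which N is any base and which reads the same on both strands. It was searched in the promoters of the RefSeq table (GRCm38.p6, 250 bases before to 50 after each start site), which held 9 of the members and not Il2rb. Cish had 2 matches, their first bases at positions 1 and 12 counted from the start site, and Il7r had 1 match, 142 bases before it. The other 7 members with a promoter had no match. Of all 32851 promoters of the table, 8.30% held at least 1 match and 0.457% at least 2, so a match is a description and not a binding site. The stretch of Cish with both matches and the 250 bases before the start sites of Il7r and Socs1 are shown because Il7r is the receptor chain itself and Cish and Socs1 are inhibitors whose levels are compared below. Capitals mark the matches.
Cish, chr9:107296649-107296678, plus strand: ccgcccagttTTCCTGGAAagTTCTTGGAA
Il7r, chr15:9529877-9530126, minus strand: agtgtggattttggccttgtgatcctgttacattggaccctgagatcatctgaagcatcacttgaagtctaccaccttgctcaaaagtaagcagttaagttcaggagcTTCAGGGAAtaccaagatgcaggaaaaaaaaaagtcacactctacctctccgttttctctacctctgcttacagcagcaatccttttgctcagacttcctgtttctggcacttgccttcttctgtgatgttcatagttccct
Socs1, chr16:10785537-10785786, minus strand: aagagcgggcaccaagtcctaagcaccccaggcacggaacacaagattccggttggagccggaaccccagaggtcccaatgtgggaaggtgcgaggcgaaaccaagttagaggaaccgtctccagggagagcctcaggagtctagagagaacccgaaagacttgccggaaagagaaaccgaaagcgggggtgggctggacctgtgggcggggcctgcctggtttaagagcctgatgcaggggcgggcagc

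Libraries and cells set the limits of every value. The iR9 titles end in 1, 2 or 3, and 15 cell numbers had libraries with suffixes 2 and 3. These same-number libraries had Pearson correlations of 0.974 to 0.992 over the 7421 genes compared below, against at most 0.422 for different numbers, so each pair was averaged and counted as 1 cell. This left 19 iR9 cells, of which 3 had suffix 1, as all WT cells did. The read depth is unknown. The median number of genes that reached TPM 10 was 2495 per WT cell, 1346 per iR9 cell and 2479 in the iR9 cells of suffix 1. The CHILP label was checked against 12 listed markers, the member Il7r among them. The list also held Flt3 and Il2ra, encoding the CD135 and CD25 that the gate left out, and both missed the filter described below. The other 10 passed, 4 with a mean log2(TPM + 1) lower and 2 higher by at least 1 in iR9 cells. At TPM of at least 10, Id2, a defining factor of the lineage, was in all 29 WT and all 19 iR9 cells. The factors Gata3, Tcf7 and Tox reached it in 24, 22 and 20 WT cells but in 8, 5 and 1 iR9 cells, with differences of -4.11, -4.80 and -5.06. Itga4, the α4 integrin of the gate, did so in 19 and 5 cells (-2.96), while Itgb7, its β7 partner, differed by -0.02. Ly6a, encoding Sca1, was higher in iR9 cells (3.22). At least 3 of the markers were held by all 29 WT and 18 of 19 iR9 cells. In iR9 cell 12-1, 9 of 10 genes listed for mast cells and basophils reached this level, and the WT cells 21-1 and 26-1 held 6 and 7 of 14 myeloid genes. Marker lists of other cell types differed between the groups. At least 3 genes of the list were held by 21 WT and 2 iR9 cells for dendritic cells, by 6 and 0 for common lymphoid progenitors, and by 4 and 0 for natural killer cells and ILC1. For erythroid genes this count was 1 WT and 1 iR9 cell. The summed level of a list did not always follow the count. Its medians in WT and iR9 cells were 441 and 828 TPM for dendritic cells, higher in iR9 cells despite the counts. They were 1148 and 213 TPM for common lymphoid progenitors and 718 and 0 TPM for natural killer cells and ILC1. For erythroid genes they were 0.928 and 683 TPM, with 4 of the 8 listed genes with a row at 0 in every iR9 cell. The globin gene Hba-a2 reached TPM 10 in 2 WT and 15 iR9 cells (difference 6.18). Its near-identical copy Hba-a1 (2.51) can share its reads, and Car2 differed by 1.57. Beyond the values without single sets of cells given below, the part of these cells in the results was not tested.

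The pairs of libraries showed which member values repeat. Of 150 member values, 10 for each of 15 pairs, 51 were at TPM of at least 10 in both libraries and 99 in neither, and none was in only 1 of them. Above that level the libraries of a pair differed by at most 1.72-fold for Il7r and 1.17-fold for the other members. Lower values repeated less. In 13 values, a TPM of at least 1 was reached in only 1 library, and in 32 a member was listed at 0 in only 1 library, which was the suffix 2 library 29 times. Over all 48 cells, 201 of 480 member values were at TPM of at least 10, 44 lay from 1 to below 10, 78 between 0 and 1, and 157 were listed at 0. The level of TPM 10 is therefore used below to say that a cell held a transcript, a choice made after its values were seen. It refers to detection: a cell below it may still contain the transcript, and how much of a cell's RNA was captured was not measured.

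**Figure D1:**
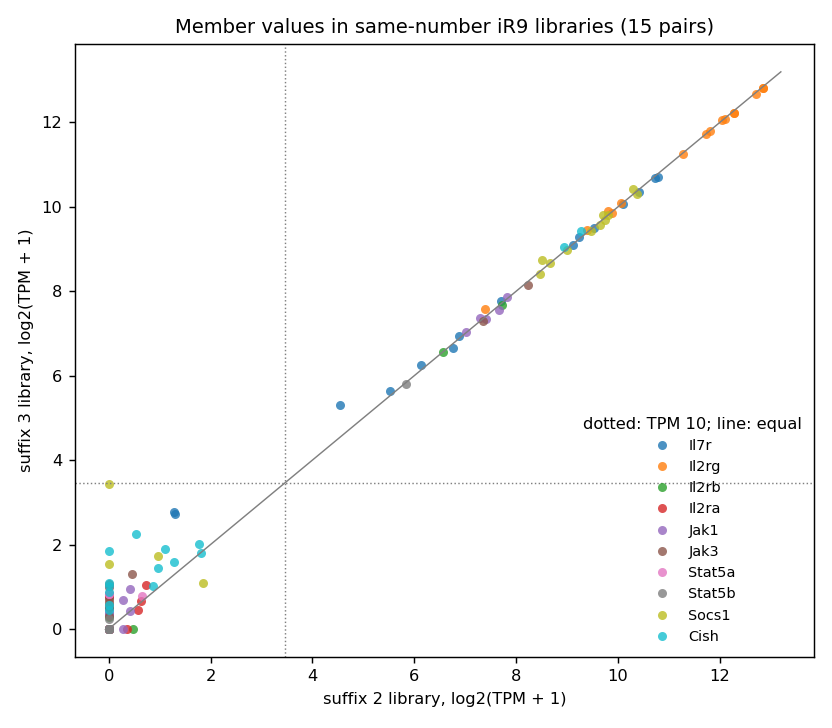
Values of the 10 member genes in the suffix 2 library (horizontal) and the suffix 3 library (vertical) of 15 iR9 cell numbers, both as log2(TPM + 1), with 1 point per gene and pair. The 51 values above TPM 10 (dotted lines) lie along the line of equality, and the scatter is confined to values below TPM 10 in both libraries, apart from the lowest Il7r value above it.

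Il7r and Il2rg, the pair that forms the IL-7 receptor, were the receptor transcripts held by most cells of both groups. Il7r (GRCm38 chromosome 15, 9505788 to 9530176, minus strand) had a lowest, median and highest level of 1.08, 202 and 4083 TPM over WT cells and of 2.71, 206 and 1722 TPM over iR9 cells. TPM 10 was reached by 25 of 29 WT cells, a share of 86.2% with an exact 95% binomial interval of 68.3 to 96.1%, and by 16 of 19 iR9 cells (84.2%, 60.4 to 96.6%). These and later intervals cover counting error only. The groups overlapped over nearly their whole range, and the means of log2(TPM + 1) were 7.56 ± 3.21 in 29 WT cells and 7.21 ± 2.85 in 19 iR9 cells, where ± gives the SD over cells, a difference of -0.35. With the iR9 cells of suffix 1 alone it was -1.58, and 0.46 without 12-1 among them. With all other cells kept, leaving out iR9 cell 12-1 gave -0.05. After quantile normalization, which gives every cell the same distribution of values, the difference was 0.60. Every cell had been sorted for the surface protein, so the gate bears on the share of cells with Il7r. The cells below TPM 10 were WT 16-1, 21-1, 25-1 and 26-1 and iR9 12-1 and the averaged cells 15 and 30. Among them are the cell with the most mast cell markers, 12-1, and the cells with the most myeloid markers, 21-1 and 26-1. WT 28-1 and 4-1, with 3 mast cell markers each, had Il7r at 61.6 and 458 TPM. WT 19-1, with 3 myeloid markers, had it at 932 TPM. The part of these markers in the Il7r levels was not tested. Without all cells that held at least 3 mast cell or myeloid markers, the Il7r difference was -0.49.

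Il2rg (chromosome X, 101264378 to 101268255, minus strand, overlapping the predicted gene Gm20489) was the most abundant member in both groups. Its lowest, median and highest level was 8.50, 1449 and 12077 TPM in WT and 178, 3398 and 7278 TPM in iR9 cells. All 19 iR9 cells held it (100%, 82.4 to 100%), in marrow of recipients that lack the gene, and 26 of 29 WT cells did (89.7%, 72.6 to 97.8%). The WT cells below TPM 10 were 16-1, 5-1 and 3-1, at 8.50, 8.65 and 9.97 TPM. WT 16-1 and 5-1 held 5 of the listed markers of common lymphoid progenitors, an earlier lymphoid stage. WT 29-1 and 6-1 also held 5, with Il2rg at 1028 and 454 TPM. WT 10-1 and 7-1 held 3, with Il2rg at 1029 and 53.1 TPM. WT 3-1 held 1 and had the highest Il7r value of all cells. The mean was 11.14 ± 1.46 in iR9 and 9.79 ± 2.63 in WT cells, a difference of 1.36. With the iR9 cells of suffix 1 alone it was 0.93, and 1.55 without 12-1 among them. As a log2 ratio of mean TPM it was 0.69. Without the 6 WT cells that held at least 3 common lymphoid progenitor markers, the Il2rg difference was 0.59. Rag2, the other gene that the recipients lack, was listed at 0 in every iR9 cell and was at TPM of at least 10 in only 2 WT cells, so it gives no such comparison. Whether recipient alleles can give an Il2rg transcript was not tested.

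The IL-2 and IL-15 receptor chain Il2rb (chromosome 15, 78479256 to 78495271) separated the groups more. In WT cells its lowest, median and highest level was 0, 0.949 and 875 TPM, and 12 of 29 cells reached TPM 10 (41.4%, 23.5 to 61.1%), with a median of 353 TPM among those. In iR9 cells the same levels were 0, 0 and 206 TPM, and only the averaged cells 10 and 15 reached TPM 10 (2 of 19, 10.5%, 1.301 to 33.1%), at 206 and 94.0 TPM. The difference of means was -2.64. Most cells of both groups were thus at or near 0, and the groups differed in how many cells held the transcript. The median of the 2 iR9 cells that held it, 150 TPM, was also below that of the 12 WT cells. Both groups share a range of 1514 to 3238 genes per cell above TPM 1. Within it WT cells still had more genes, a median of 2495 against 1732. There Il2rb was held by 4 of 16 WT and 2 of 19 iR9 cells, and the difference was -1.54. Over the whole range of cells, leaving out the averaged iR9 cell 10 changed the difference from -2.64 to -3.02.

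All 12 WT cells with Il2rb also held Il7r and Il2rg, and 10 of them held Socs1. Most of the 17 WT cells without it did too, 13 for Il7r, 14 for Il2rg and 9 for Socs1. Of the 12 with Il2rb, 10 held Nkg7, a cytotoxic granule gene, 4 held Klrb1c, encoding NK1.1, and 3 held Klrd1. Of the 17 WT cells without Il2rb, 10 held Nkg7, none held Klrb1c and 1 held Klrd1. The median number of the 10 listed natural killer and ILC1 genes was 1 in both sets of WT cells, and 3 cells with Il2rb and 1 without it held at least 3 of them. These genes were singled out after their values were seen. Cells with Il2rb also had more genes at TPM of at least 10, a median of 3223 against 2064, and the part of this in the overlaps was not tested. In iR9 cells no natural killer or ILC1 gene of the list reached TPM 10, those with Il2rb included.

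Il2ra, encoding CD25 (chromosome 2, 11642807 to 11693193), was below TPM 1 in all 48 cells, with highest levels of 0.670 TPM in WT and 0.851 TPM in iR9 cells. Cells with surface CD25 had been left out by the sort. It was the only member that missed the filter for comparisons across genes, which kept the 7421 genes that reached TPM 1 in 10% or more of the cells.

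**Figure D2:**
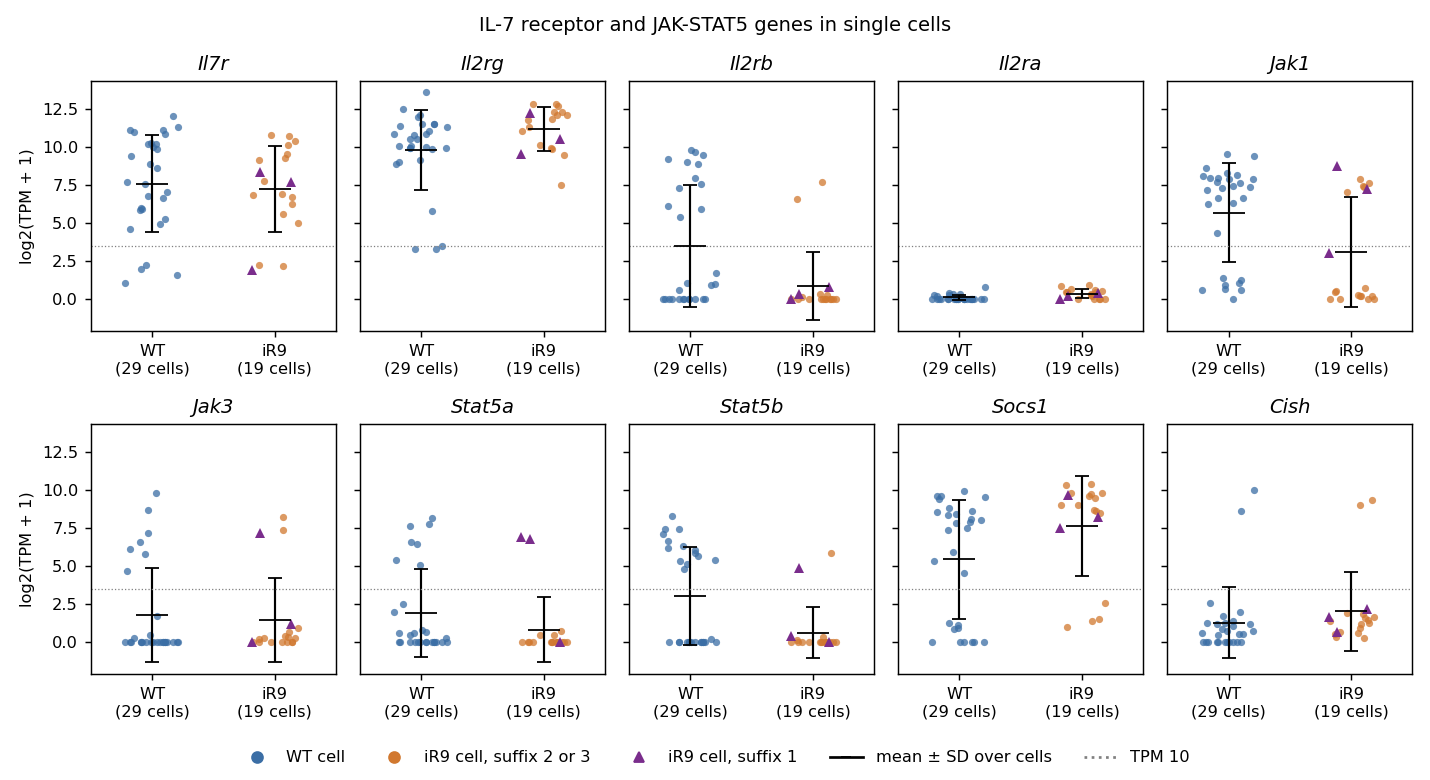
Levels of the 10 member genes as log2(TPM + 1) in each of 29 WT cells and 19 iR9 cells, with the mean and SD over cells in black and triangles for the 3 iR9 cells of suffix 1. Il7r and Il2rg are high in nearly every cell, Jak1, Stat5b and Il2rb have more WT than iR9 cells above TPM 10 (dotted line), and Cish has only 2 cells of each group far above it.

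Of the kinases, Jak1 was in fewer iR9 cells, as were most genes. Jak1 (chromosome 4, 101152367 to 101265282, minus strand) had a lowest, median and highest level of 0, 153 and 717 TPM in WT and of 0, 0.412 and 428 TPM in iR9 cells. It reached TPM 10 in 21 of 29 WT cells (72.4%, 52.8 to 87.3%) and 7 of 19 iR9 cells (36.8%, 16.3 to 61.6%). Where present it was of similar size, with medians of 206 and 166 TPM among cells that held it. The means were 5.66 ± 3.22 in WT and 3.08 ± 3.61 in iR9 cells, a difference of -2.58. The shared range of genes detected gave 12 of 16 WT and 7 of 19 iR9 cells and a difference of -2.75. The iR9 cells of suffix 1 did not share it: 12-1, 14-1 and 17-1 held 7.14, 428 and 145 TPM of Jak1, and with these cells alone the difference turned to 0.66. Of the other 16 iR9 cells, 5 held Jak1. No WT cell had another suffix, so suffix and group cannot be told apart in the comparison of all cells.

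Jak3 (chromosome 8, 71676296 to 71690575), the kinase of the gamma chain, was rare in both groups. It reached TPM 10 in 7 of 29 WT cells (24.1%, 10.3 to 43.5%) and 3 of 19 iR9 cells (15.8%, 3.38 to 39.6%), and its highest levels were 886 TPM in WT cell 1-1 and 291 TPM in the averaged iR9 cell 10. The medians were 0 and 0.215 TPM, so most cells were at or near 0. The difference of -0.35 was far smaller than the SD of 3.11 over WT cells. In the shared range of genes detected, where 1 of 16 WT and 3 of 19 iR9 cells held Jak3, the difference was 0.83. After quantile normalization it was 0.85. With the iR9 cells of suffix 1 alone, of which only 14-1 held Jak3, at 140 TPM, it was 1.02. At least 1 of both kinases was held by 24 of 29 WT and 8 of 19 iR9 cells. Jak3 overlaps Insl3 on the same strand, and Insl3 was listed at 0 in all cells.

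The STAT5 factors were also in fewer iR9 cells. Stat5b (chromosome 11, 100780731 to 100850724, minus strand) had a lowest, median and highest level of 0, 0.135 and 305 TPM in WT and of 0, 0 and 55.3 TPM in iR9 cells. It was held by 14 of 29 WT cells (48.3%, 29.4 to 67.5%) and by 2 of 19 iR9 cells (10.5%, 1.301 to 33.1%), which were 14-1 at 28.6 TPM and the averaged cell 27 at 55.3 TPM. The difference of means was -2.42, and -1.46 in the shared range of genes detected, where 5 of 16 WT cells held it. With the iR9 cells of suffix 1 alone it was -1.26.

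Stat5a (chromosome 11, 100859351 to 100885169, plus strand) was held by 7 of 29 WT cells (24.1%, 10.3 to 43.5%), with a highest level of 281 TPM in cell 7-1. It was also held by 2 of 19 iR9 cells, 12-1 at 116 TPM and 14-1 at 107 TPM. Both have suffix 1, and none of the 16 other iR9 cells exceeded 0.655 TPM (0%, 0 to 20.6%). The difference of -1.08 turned to 2.65 with the suffix 1 cells alone, and without WT cell 7-1 it was -0.86. Its size also fell below 1 without any 1 of the WT cells 12-1, 18-1, 23-1, 28-1, 29-1 or 6-1. The genes lie 8626 bases apart and share sequence: 15.8% of the 50-base stretches of the longest Stat5a transcript also occur in Stat5b. How the authors' counting split such reads is not given in the sources used here. In WT cells 4 held both factors, 3 only Stat5a and 10 only Stat5b, so that 17 of 29 held at least 1, against 3 of 19 iR9 cells. Stat5a also overlaps Stat3 on the opposite strand, and 4 of its 7 WT cells and both its iR9 cells held Stat3.

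Both feedback inhibitors had higher means in iR9 cells. Socs1 (chromosome 16, 10782240 to 10785536, minus strand), which blocks JAK kinases, had a lowest, median and highest level of 0, 178 and 984 TPM in WT and of 0.944, 506 and 1319 TPM in iR9 cells. It was held by 19 of 29 WT cells (65.5%, 45.7 to 82.1%) and 15 of 19 iR9 cells (78.9%, 54.4 to 93.9%). Among cells that held it, the medians were 321 TPM in WT and 698 TPM in iR9 cells, so both the share of cells and the level were higher. The means were 7.61 ± 3.28 in iR9 and 5.43 ± 3.89 in WT cells, a difference of 2.19. All 3 suffix 1 cells held Socs1, at 182, 822 and 301 TPM in 12-1, 14-1 and 17-1. With them alone the difference was 3.05, in the shared range of genes detected it was 2.55, and leaving out any 1 cell kept it between 1.99 and 2.56.

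Cish (chromosome 9, 107296026 to 107302784, overlapping the predicted genes Gm17040 and Gm17041), whose start region with both motif matches is printed above, was low or at 0 in most cells and high in a few. Only 2 WT cells, 14-1 at 391 TPM and 27-1 at 1033 TPM, and 2 iR9 cells, the averaged cells 10 at 509 TPM and 8 at 654 TPM, reached TPM 10. No other cell exceeded 4.81 TPM. All 4 of these cells held Il7r, Il2rg and Socs1, and none held Stat5a or Stat5b. Most cells held the same 3 members: 25, 26 and 19 of 29 WT cells and 16, 19 and 15 of 19 iR9 cells. At least 1 of Stat5a and Stat5b was held by 17 of 29 WT and 3 of 19 iR9 cells. The pattern is thus not particular to cells with Cish. Socs1 was at 382 and 725 TPM in the WT pair. Cish was above 0 in all 19 iR9 and 18 of 29 WT cells, but such low values often differed between libraries of a pair. The difference of 0.75 rested on low values and on single high cells alike. With TPM below 10 set to 0, an alternative chosen after the data were seen, it was 0.32, and without the averaged iR9 cell 8 or 10 it was 0.34 or 0.37. Without WT cell 27-1 it was 1.07, it also passed 1 without WT cell 14-1, and after quantile normalization it was 2.34.

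Set against all genes, the members split in both directions. Of 9 members that passed the filter, 4 had a mean lower by at least 1 in iR9 cells (Il2rb, Jak1, Stat5b and Stat5a), where 44.5% of the 7421 genes did. Another 2, Socs1 and Il2rg, were higher by at least 1, as were 5.15% of all genes. The median difference was -0.35 over the members and -0.88 over all genes. The median over the members turned to 0.60 after quantile normalization and to 0.66 with the iR9 cells of suffix 1 alone. The share of lower members is near that background, and no statement about the pathway follows from it. At TPM of at least 10, 6 members had a lower share of iR9 cells and 3 a higher one, with 84.9% and 14.4% of all genes doing so. After quantile normalization the median of all genes was -0.08, 15.2% of them were lower and 16.7% higher by at least 1, and 2 members, Il2rb and Jak1, stayed lower by at least 1. Then 3 members were higher by at least 1: Socs1 (3.31), Cish (2.34) and Il2rg (1.19). In the order of all differences, Socs1 lay at percentile 98.6, Il2rg at 96.6 and Cish at 93.2, while Il2rb, Jak1 and Stat5b lay at 5.98, 6.66 and 8.13. Il7r and Jak3 lay at 71.5 and 71.4.

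**Figure D3:**
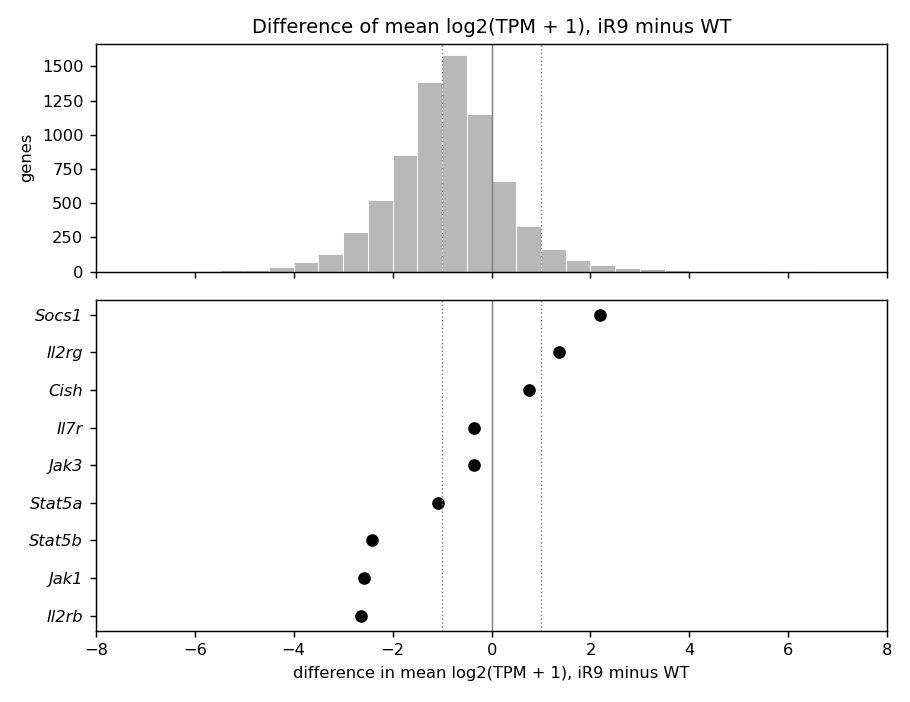
Difference in mean log2(TPM + 1), iR9 minus WT, for all 7421 genes as a histogram (top, number of genes per bin of 0.5) and for the 9 members that passed the filter (bottom), with dotted lines at -1 and 1. Most genes lie below 0, with a median of -0.88, and Socs1 and Il2rg are the members above 1.

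Within each group the members also had an order of levels, which TPM allows since it is per length. By mean log2(TPM + 1), WT cells had Il2rg, Il7r, Jak1, Socs1, Il2rb, Stat5b, Stat5a, Jak3, Cish and Il2ra from high to low. No neighbours in this order differed by more than the larger of their SDs. In iR9 cells the order was Il2rg, Socs1, Il7r, Jak1, Cish, Jak3, Il2rb, Stat5a, Stat5b and Il2ra. There 2 steps exceeded both SDs, from Il2rg to Socs1 (3.53) and from Il7r to Jak1 (4.13). The second step leaves Il2rg, Socs1 and Il7r apart from the kinases and STAT5 factors over all iR9 cells. In the 3 iR9 cells of suffix 1 it was absent, with means of 5.98 for Il7r, 6.32 for Jak1 and 4.54 for Stat5a. Jak3 and Stat5b were at 2.78 and 1.76 there. In the 16 other iR9 cells the means were 7.45 for Il7r and 2.48 for Jak1.

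A cell needs several parts for IL-7 signalling, and transcripts of all were detected together in few cells. Whether a part below the level was absent from a cell or missed was not tested. Counting Il7r, Il2rg, Jak1, Jak3 and at least 1 of Stat5a and Stat5b as 5 parts, WT cells held a median of 3 and iR9 cells a median of 2 at TPM of at least 10. All 5 parts were held by 3 of 29 WT cells (10.3%, 2.19 to 27.4%), 6-1, 8-1 and 9-1, and by 1 of 19 iR9 cells (5.26%, 0.133 to 26.03%), 14-1. With TPM 1 as the level these counts were 4 and 1, with WT cell 31-1 added. The WT cells with all 5 parts had 3868 to 5287 genes at TPM of at least 10, more than any iR9 cell, whose highest count was 2584, in 14-1. In the shared range of genes detected, none of 16 WT cells held all 5. There the medians remained 3 in WT and 2 in iR9 cells. The Spearman rho between parts and genes at TPM of at least 10, over cells of 1 sample, was 0.62 in 29 WT and 0.32 in 19 iR9 cells. The receptor pair alone, Il7r with Il2rg, was in 23 of 29 WT and 16 of 19 iR9 cells.

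**Figure D4:**
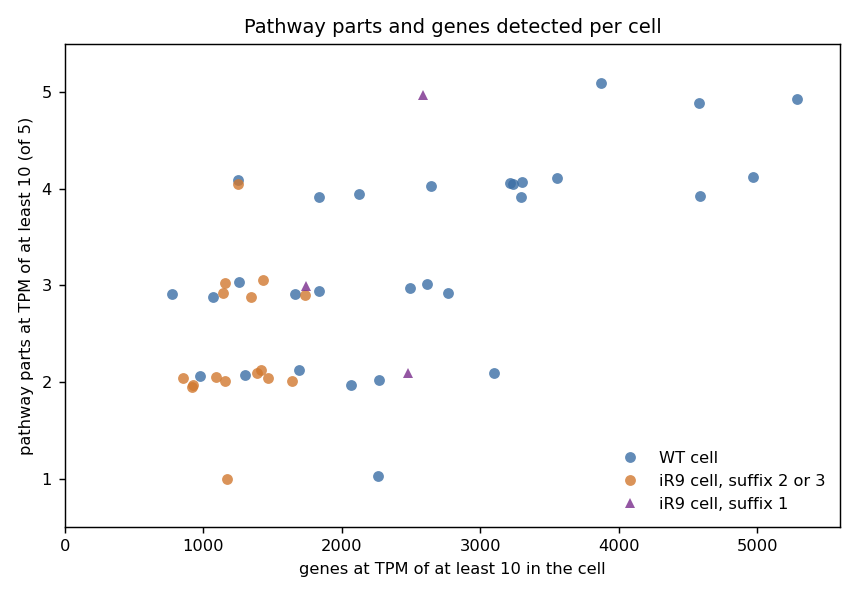
Number of the 5 pathway parts at TPM of at least 10 (vertical, points spread slightly to avoid overlap) against the number of genes at that level in the same cell (horizontal), for 29 WT and 19 iR9 cells. The 3 WT cells with all 5 parts lie at 3868 to 5287 genes, to the right of every iR9 cell.

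Other genes around the pathway came from lists chosen with earlier results known. Their counts are to be read beside all 7421 genes, of which 6041 had a lower mean in iR9 cells and 44.5% were lower and 5.15% higher by at least 1, and none is set apart from these by a test. Of the other JAK kinases and STAT factors, 6 of 7 passed the filter, and 2 were lower by at least 1. Stat3, the main factor of IL-23 and IL-6 signals, was held by 18 of 29 WT and 4 of 19 iR9 cells (difference -2.35). Stat6, the factor of IL-4 signals, was held by 9 WT cells and no iR9 cell (-2.08). Jak2 differed by -0.85, and the median of the 6 was -0.69.

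Of 19 further inhibitors listed besides Socs1 and Cish, 13 passed, 10 of them with a lower mean, 7 lower and 1 higher by at least 1, with a median of -1.03 beside -0.88 for all genes. The phosphatases Ptpn2, which acts on JAK1, JAK3 and STAT5, and Ptpn6 (SHP-1) were held by 17 and 16 of 29 WT cells and by 3 and 4 of 19 iR9 cells, with differences of -3.14 and -2.40. Socs2, a further STAT5-induced inhibitor, was the one that was higher (1.70), held by 3 WT and 5 iR9 cells. Pias4 differed by -1.73.

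Known targets of STAT5 lay on both sides. Of 18 listed, Socs1 and Cish included, 15 passed, with 5 lower and 4 higher by at least 1 and a median of 0.11. The survival gene Bcl2 was held by 23 of 29 WT and 8 of 19 iR9 cells (-3.05), the cyclin Ccnd3 by 20 and 6 (-3.61) and Myc by 10 and 0 (-2.84). Mcl1 and Pim3 were also lower, by -1.47 and -1.35. The higher ones were Lta (2.66), Socs1, Socs2 and the kinase Pim2 (1.31), and Lta was held by 7 WT and 10 iR9 cells. Of the PI3K arm, the other branch below the receptor, all 12 genes that passed had a lower mean, 5 of them by at least 1, with a median of -0.87 beside -0.88 for all genes. Pik3cd, the lymphoid catalytic subunit, differed by -2.65, Gsk3b by -1.86, Akt1 by -1.74 and Klf2 by -1.71.

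Of 9 listed factors that act on the Il7r gene, 7 passed, with 5 lower and 1 higher by at least 1 and a median of -2.02. Ikzf1, encoding Ikaros, was held by 19 of 29 WT and 1 of 19 iR9 cells (-3.77), and Myb by 11 and 0 (-2.86). Ets1 was held by 19 and 7 (-2.62). Runx1 was held by 4 WT and 11 iR9 cells (3.91). Among other cytokine receptor chains, 14 of 22 passed, with 7 lower and 2 higher by at least 1 and a median of -0.51. Il17rb, of the IL-25 receptor, was held by 9 WT cells and no iR9 cell, while Il23r was held by 6 iR9 cells and no WT cell. Genes of the cytokines themselves, Il7 and 6 others, did not pass the filter.

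Patterns most like those of Il7r and Il2rg were sought over the 29 WT cells among the 1904 genes that reached TPM 1 in 50% or more of them. For Il7r these were Macf1 (Spearman rho 0.67), Abcg1 (0.58), Rnf115 (0.54), Atraid (0.51) and Gimap6 (0.50). Over the 19 iR9 cells the rho of the same genes with Il7r lay between -0.46 (Abcg1) and 0.084 (Gimap6). For Il2rg they were Timm23 (0.73), H2-K1 (0.68), Tmem30a (0.66), Sh3bgrl3 (0.57) and Ndufs4 (0.55), with 0.39 for Timm23, 0.15 for H2-K1 and at most 0.042 for the others over iR9 cells. The cells share 1 sample and differ in genes detected, so these values only describe the WT cells.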

How the data were processed

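Per the labels' protocols, polyA RNA of sorted single cells was amplified and sequenced. The authors deposited TPM values by gene symbol, 1 column for each library. The submitters' processing notes name StringTie 1.3.4, HISAT2 2.1.0, bcl2fastq 2.16.0.10, SAMtools 0.1.19 and mm10, with no role or order. TPM keeps no depth, so no count test was used. The table had 23420 rows, of which 27 with date-like symbols were left out, and 63 columns, each matched to 1 sample title.

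Same-number iR9 libraries of suffix 2 and 3 were averaged, giving 19 iR9 and 29 WT cells. Differences are of mean log2(TPM + 1), with a pseudocount of 1, and understate the change of low genes. A gene counted as lower or higher at a difference of at least 1, over genes that reached TPM 1 in 10% or more of cells. With 1 sample per group, no test or standard error was possible. Intervals are exact Clopper-Pearson 95%. The sort gave single cells, no doublet caller was run and no cell was removed. The members and gene lists were chosen with earlier results of these data known. All members are named, with up to 4 genes per list by size of difference, fewer where space did not warrant it, and others where a count called for them. The result of 1 listed gene is not reported here. The functions were tested on simulated data. GENCODE M21 (GRCm38) gave gene coordinates and promoters came from RefSeq. Python 3.11.15, NumPy 2.4.6, pandas 2.3.3, SciPy 1.17.1 and matplotlib 3.10.9 were used.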

Additional observations from a re-analysis of the deposited data

How the results depend on the processing

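No paired analysis was possible because no result here rests on a test. With suffix 1 iR9 libraries only, Jak1 (0.66), Jak3 (1.02) and Stat5a (2.65) changed sign. Without iR9 cell 12-1 as well they were 2.30, 2.41 and 1.49, and Il7r turned to 0.46. In that setting 1 member was lower and 5 were higher by at least 1. After quantile normalization 2 members were lower by at least 1 and 15.2% of all genes were. For the log2 ratio of mean TPM, and without the WT cells with common lymphoid progenitor markers, 1 member was higher by at least 1. In the shared range of genes detected 0 WT cells held all pathway parts at TPM of at least 1, and 26.3% of all genes were lower by at least 1. With a pseudocount of 10 that share was 17.96%. Leaving out each cell in turn, 3 or 4 members were lower and 2 or 3 higher by at least 1, and the number of iR9 cells with all parts lay between 0 (without 14-1) and 1. The differences lay for Il2rg between 1.12 and 1.56, Il2rb between -3.02 and -2.42, Jak1 between -2.89 and -2.41, Stat5b between -2.70 and -2.23 and Stat5a between -1.42 and -0.86. Il2rb and Stat5b stayed negative and Socs1, Il2rg and Cish positive in every setting tried. Stat5b came as near to 0 as -0.58, with suffix 1 libraries only and without 12-1. Cish came as near as 0.07, in the shared range of genes detected. Leaving out cells by common lymphoid progenitor markers or in turn, setting TPM below 10 to 0 and leaving out 12-1 were chosen after seeing the data. Depth is unknown, so low values are the least certain.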
